A study of Homo sapiens with 12 samples.

Results

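The comparison described here sets the 3 libraries of AC16 cells with the longest doxorubicin exposure against the 3 libraries with the next longest, out of 12 libraries in the series. AC16 is a human cell line derived from ventricular heart tissue by fusion with fibroblasts, and it divides in culture. All cells carried the wild-type genotype, and the drug was given at 0.1 µM in both groups. The longest exposure is named as 6 days in the series design and as 112 h in the sample titles, and the reference exposure as 4 days and 96 h. The interval between them is therefore 2 days by the design and 16 h by the titles, and the titles place every library at the same day. The groups are called the 6-day and 4-day libraries here. Levels from 3 libraries of cells exposed for 2 days (48 h) and 3 control libraries in DMEM medium stand beside them as description. Of 60607 gene IDs in the count table, the 17320 that passed a filter on low counts were tested, and each gene called was then followed through 6 fits that left out 1 library at a time. Whether the 3 libraries of a group were separate cultures is not stated, and the p-values may therefore reflect technical spread alone.

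Doxorubicin is an anthracycline that slips between DNA base pairs and traps topoisomerase II on cut DNA. The breaks activate p53, which induces the cyclin-dependent kinase inhibitor CDKN1A, and genes needed for mitosis are then repressed through the DREAM complex at short promoter elements. Cells that stay arrested with damaged DNA can enter senescence, a state known for secretion of cytokines, chemokines, proteases and matrix proteins, much of it driven by NF-kB.

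Library totals were 15546671 to 20683081 counts in the 6-day group and 16997530 to 18184315 in the 4-day group. Counts of mitochondrial genes made up 5.77% to 6.8% of the 6-day libraries and 8.01% to 8.34% of the 4-day libraries, so the groups did not overlap in this share. The label "cardiomyocytes" was checked against 13 heart muscle markers. Of these 7 had 10 or fewer counts in the 6 libraries together, MYL2 had 0, and the summed level was 17.1 to 20.5 CPM (counts scaled to a common library size) in the 6-day libraries and 12.3 to 16.9 CPM in the 4-day libraries. Nearly all of that sum came from TTN, the giant sarcomere protein titin, with 950 counts over the 6-day libraries and 717 over the 4-day libraries, which was not called. The 10 fibroblast markers summed to 7060 to 7450 CPM in the 6-day libraries and 8450 to 8720 CPM in the 4-day libraries. In bulk RNA, fewer cells expressing a gene and less of its RNA per cell cannot be told apart.

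Between 4 and 6 days, 1174 genes (6.78% of those tested) passed an adjusted p of 0.05 in edgeR's quasi-likelihood test with Benjamini-Hochberg adjustment. Of these, 528 (3.05%) were higher and 646 (3.73%) were lower at 6 days. These shares depended on level. Of 2411 genes at 100 CPM or more in the higher group, 88 were called higher and 248 lower. Of 2611 genes under 1 CPM, 9 were called higher and 3 lower. The gene lists below are set beside the shares of all tested genes, without matching for level. With libraries scaled by their totals alone, in place of the trimmed mean of M-values (TMM), the split was 1006 higher and 350 lower, and the median log2 fold change of all genes was 0.07 in place of 0.00. Most differences were small. The median log2 fold change was 0.50 among genes called higher and -0.40 among genes called lower, and 81 genes were at least 2-fold higher while 36 were at least 2-fold lower. The 3 libraries of 1 group lay entirely above or below those of the other for 1164 of the 1174 genes called, while 27.6% of all tested genes showed such a separation.

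Each call was checked against single libraries. A gene was counted as held when it kept its direction and an adjusted p under 0.05 in the fit of all libraries and in every fit that left out 1 of the 6. This left 380 genes (2.19% of those tested), of which 179 were late gains (1.03%) and 201 late losses (1.16%), or 33.9% of the gains and 31.1% of the losses called. No called gene changed sign in any of these fits. The number called ranged from 574 without 4-day library 1 to 884 without 4-day library 2, against 1174 with all libraries. Without 6-day library 1, 6-day library 2 or 4-day library 3 it was 619, 578 and 690. Without 6-day library 3 the gains alone numbered 349, against 528. Of the 1174 genes, 126 were called in none of the 6 fits and 536 in at most 2. Without 6-day library 1 gains and losses were nearly even, at 311 and 308. Each such fit also held fewer samples than the full one.

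**Figure D1:**
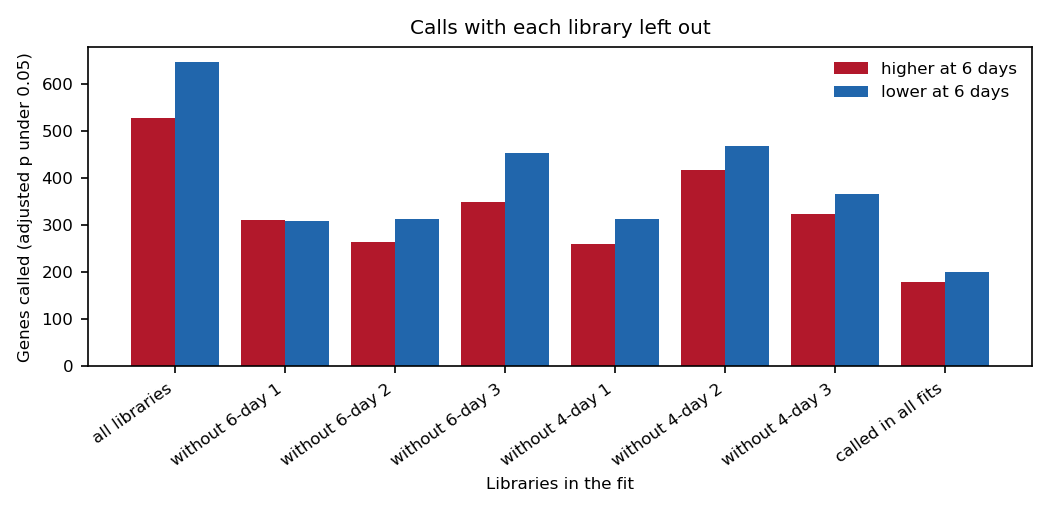
Bars count the genes called higher (red) and lower (blue) at 6 days with all libraries, with each of the 6 libraries left out, and in all fits. With all libraries 528 genes were higher and 646 lower, and 179 and 201 were called in every fit.

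The largest late gains were in a transcription factor, chemokines and secreted proteins of the complement, protease and basement membrane systems. EHF, an ETS transcription factor of epithelial cells on chromosome 11 (34621093 to 34661057, plus strand, GRCh38), had 14.8, 16.1 and 16.1 CPM in the 6-day libraries and 2.21, 3.48 and 2.20 CPM in the 4-day libraries. The lowest 6-day library lay above every 4-day library. The log2 fold change was 2.58 ± 0.18 (SE), with an adjusted p of 7.0e-09 by edgeR's quasi-likelihood test, and it stayed between 2.47 and 2.83 with each library left out. EHF averaged 0.741 CPM in 2-day libraries and 0 CPM in controls. Among 14 tested members of an epithelial and keratin list, EHF was the one called higher and KRT14 the one called lower. The KRT14 call was not held and is given with other such genes near the end.

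Complement component C3, the central protein of the complement cascade (chromosome 19, 6677704 to 6730562, minus strand), had 506, 543 and 551 CPM in the 6-day libraries and 208, 202 and 250 CPM in the 4-day libraries. The groups were well apart, and the log2 fold change was 1.27 ± 0.09 (SE, adjusted p = 2.92e-09 by edgeR's quasi-likelihood test). SERPINE2, a secreted inhibitor of thrombin and plasminogen activators (chromosome 2, 223975112 to 224039319, minus strand), had 459, 481 and 503 CPM in the 6-day libraries and 228, 220 and 219 CPM in the 4-day libraries. Its 3 4-day libraries were close together and far below the 6-day ones, with a log2 fold change of 1.11 ± 0.08 and the same adjusted p as C3. LAMA4, a laminin chain of vessel and muscle basement membranes (chromosome 6, 112108760 to 112254939, minus strand), had 198, 208 and 207 CPM in the 6-day libraries and 88.4, 91.7 and 75.7 CPM in the 4-day libraries. Its log2 fold change was 1.26 ± 0.09, and for these 3 genes no single library moved the log2 fold change below 1.08.

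RAB27B, a small GTPase that directs secretory vesicles to the plasma membrane, had 44.1, 53.1 and 45 CPM in the 6-day libraries and 13.1, 17.9 and 13.3 CPM in the 4-day libraries (log2 fold change 1.68 ± 0.16). The groups did not overlap. PTPN22, a tyrosine phosphatase best known from lymphocytes, had 14.9, 15.7 and 13.2 CPM in the 6-day libraries and 5.77, 6.54 and 5.93 CPM in the 4-day libraries (1.26 ± 0.13). The 2-day libraries averaged 14.8 CPM of PTPN22, so its 6-day level was close to the level already present at 2 days. The remaining genes among the 12 largest held gains at 10 CPM or more, besides the cytokines below, were CFAP44, LYNX1 and MYH16. CFAP44 is a protein of motile cilia (log2 fold change 1.10 ± 0.14). LYNX1 is a membrane-anchored modulator of nicotinic acetylcholine receptors (1.04 ± 0.12), and MYH16 rose by 0.94 ± 0.13. Non-overlapping groups and a held call were conditions for entering these 12.

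**Figure D2:**
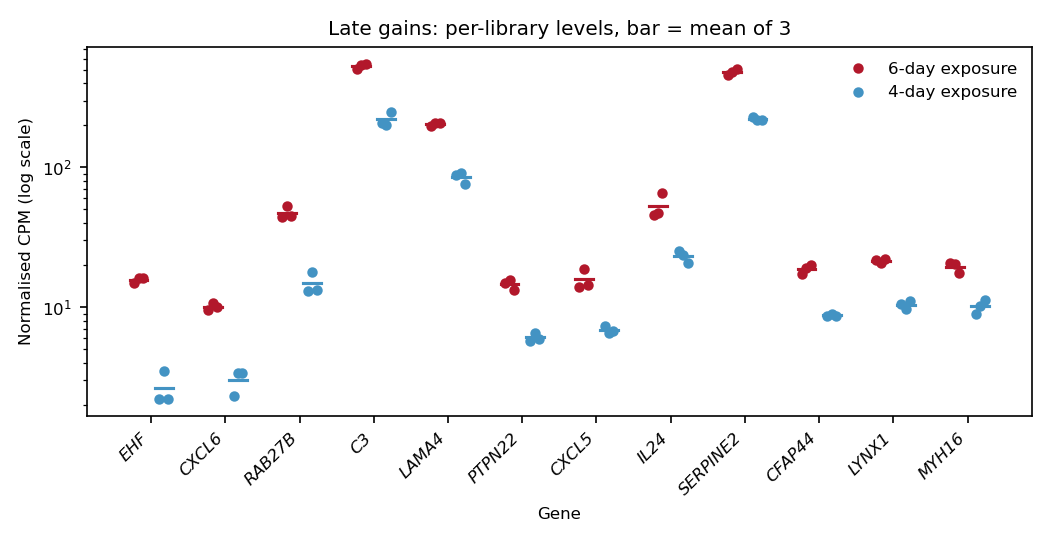
Each point is the level of 1 library in normalised CPM on a log axis, with 6-day libraries (red) left of 4-day libraries (blue) and a bar at the mean of 3, for the 12 largest held gains at 10 CPM or more. The 6-day points lie above the 4-day points in all 12 genes, which was a condition of their choice. Log2 fold changes run from 2.58 in EHF to 0.94 in MYH16.

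Chemokines and interleukins moved in both directions, with more members rising. Of 38 tested members of a list of NF-kB and inflammatory secretory genes, 8 were called higher (background 3.05% of genes) and 3 lower (background 3.73%), and 5 of the gains and 1 of the losses were held. The list's median log2 fold change was 0.09, against 0.00 for all genes. CXCL6, a chemokine that attracts neutrophils (chromosome 4, 73836497 to 73849064, plus strand), had 9.57, 10.6 and 10.1 CPM in the 6-day libraries and 2.32, 3.36 and 3.4 CPM in the 4-day libraries. Its log2 fold change was 1.74 ± 0.19 (adjusted p = 3.66e-06 by edgeR's quasi-likelihood test) and the groups did not overlap. Its close paralog CXCL5 (chromosome 4, 73995642 to 73998779, minus strand) had 14, 18.9 and 14.5 CPM in the 6-day libraries and 7.30, 6.54 and 6.75 CPM in the 4-day libraries. For CXCL5 the 6-day library 2 was the highest, and without it the log2 fold change was 1.05 in place of 1.20 ± 0.16. Reads shared between the paralogs could be dropped or assigned to either gene, so these 2 values are less certain than the rest.

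IL24, a cytokine of the IL-10 family, had 45.5, 47.5 and 65.3 CPM in the 6-day libraries and 25.1, 23.6 and 20.5 CPM in the 4-day libraries (log2 fold change 1.20 ± 0.19). The 6-day library 3 stood above the others, and without it the log2 fold change was 1.01. IL6, the main inflammatory interleukin of the senescent secretome, had 270, 293 and 316 CPM in the 6-day libraries and 184, 173 and 206 CPM in the 4-day libraries (0.64 ± 0.09). CXCL8, another neutrophil chemokine, had 790, 916 and 939 CPM in the 6-day libraries and 586, 607 and 654 CPM in the 4-day libraries (0.52 ± 0.08). Neither gene's groups overlapped, and both calls were held. CSF3, CCL7 and TNFAIP3 were also called higher, but each lost its call in at least 1 fit without a library. In the other direction ICAM1, an adhesion molecule for leukocytes, had 137, 142 and 159 CPM in the 6-day libraries and 228, 241 and 247 CPM in the 4-day libraries (-0.70 ± 0.09, held). CXCL2 and NFKBIA, the inhibitor that NF-kB itself induces, were called lower without being held. Without 4-day library 1, 6-day library 1 or 6-day library 2, the list gave 1 call lower in place of 3. IL1B (log2 fold change 0.24 ± 0.09, adjusted p = 0.124) and CSF2 (0.08 ± 0.19, adjusted p = 0.854) did not pass the edgeR test.

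The promoters of 3 chemokine and interleukin genes that rose are shown because each holds the letters of an NF-kB site. The sequences are from RefSeq on GRCh38.p14, run from 250 bases before to 50 after the annotated start, and are written 5′ to 3′ on the gene's strand with the NF-kB letters in capitals.
CXCL6, chr4:73836428-73836727, plus strand: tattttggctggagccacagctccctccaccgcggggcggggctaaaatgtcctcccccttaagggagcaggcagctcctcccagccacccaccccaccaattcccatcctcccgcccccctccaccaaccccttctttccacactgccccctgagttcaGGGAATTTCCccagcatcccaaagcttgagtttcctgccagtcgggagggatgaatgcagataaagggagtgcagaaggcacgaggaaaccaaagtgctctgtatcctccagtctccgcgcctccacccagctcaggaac
CXCL5, chr4:73998628-73998927, minus strand: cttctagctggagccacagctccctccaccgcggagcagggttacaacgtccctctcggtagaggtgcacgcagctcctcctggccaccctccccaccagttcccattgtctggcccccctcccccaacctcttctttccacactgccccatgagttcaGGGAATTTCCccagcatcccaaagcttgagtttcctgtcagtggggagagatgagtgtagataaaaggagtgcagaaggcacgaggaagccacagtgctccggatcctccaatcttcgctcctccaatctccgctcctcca
IL6, chr7:22726950-22727249, plus strand: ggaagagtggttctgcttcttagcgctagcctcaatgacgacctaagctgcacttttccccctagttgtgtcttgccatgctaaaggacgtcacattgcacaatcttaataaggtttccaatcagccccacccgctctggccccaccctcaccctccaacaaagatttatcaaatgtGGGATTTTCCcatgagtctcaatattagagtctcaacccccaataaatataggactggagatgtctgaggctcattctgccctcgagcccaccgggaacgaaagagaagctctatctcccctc
The letters searched, on both strands, were 3 G, any 2 bases, 3 T and 2 C. They begin 90 bases before the start in CXCL6 and 91 before it in CXCL5, as GGGAATTTCC in both, and 73 before it in IL6, as GGGATTTTCC. Of the 7 called-higher list members with a RefSeq promoter, 4 (57.1%) held these letters, against 1.91% of all 35116 promoters and 2.12% of the 11725 promoters matched to tested genes. Over all held gains the share was 4.32% of 139 matched promoters. Over all 31 matched members of the list, called or not, 13 (41.9%) held them. The list was drawn up around NF-kB, and the letters alone do not show binding.

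Complement and coagulation genes were called in both directions. Of 26 tested, 6 were called higher (background 3.05%) and 3 lower (background 3.73%), with a median log2 fold change of 0.02. Of these calls 4 gains and 2 losses were held (background 1.03% and 1.16% of tested genes). Beside C3 and SERPINE2 the held gains were C5, the complement component that starts the lytic pathway, and PLAU, the urokinase plasminogen activator. C5 had 19.7, 19.9 and 18.2 CPM in the 6-day libraries and 11.3, 10.2 and 9.72 CPM in the 4-day libraries (log2 fold change 0.89 ± 0.13), and PLAU rose by 0.63 ± 0.13 on the log2 scale. The held losses were PLAT, the tissue plasminogen activator, and CD55, which protects cells from complement. PLAT had 784, 694 and 767 CPM in the 6-day libraries and 1063, 1107 and 1429 CPM in the 4-day libraries (-0.68 ± 0.09). The 4-day library 3 was the highest for PLAT, and without it the log2 fold change was -0.54. The urokinase receptor PLAUR was called lower as well, but not held, so the activators PLAU and PLAT moved in opposite directions.

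Genes of mitosis had the highest share of held losses among the 38 gene lists. Of 49 genes of a mitosis and G2/M list, all tested, 38 were called lower (77.6%, background 3.73%), none higher, and 30 of the losses were held (background 1.16%). The median log2 fold change was -0.48, against 0.00 for all genes, and the 6-day and 4-day libraries did not overlap for 41 of the 49. Summed over the list, the level was 4980 to 5190 CPM in the 6-day libraries and 6880 to 7230 CPM in the 4-day libraries. With any 1 library left out, 30 to 34 members were called lower, and with library totals as the scale 31 were.

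PLK1, a kinase required for mitotic entry and spindle assembly (chromosome 16, 23677656 to 23690367, plus strand), had 24.3, 26.3 and 30.7 CPM in the 6-day libraries and 57.0, 57.2 and 73.2 CPM in the 4-day libraries. The 4-day library 3 was the highest, and every 6-day library lay far below the lowest 4-day one. The log2 fold change was -1.20 ± 0.12 (adjusted p = 1.55e-06 by edgeR's quasi-likelihood test), or -1.07 without that library. Cyclin B1, the partner of CDK1 at mitotic entry, is encoded by CCNB1 (chromosome 5, 69167010 to 69178245, plus strand) and had 68.7, 62.7 and 65.8 CPM in the 6-day libraries and 110, 112 and 117 CPM in the 4-day libraries (-0.78 ± 0.08). KIF20A, a kinesin of cytokinesis, had 27.7, 29.7 and 32.4 CPM in the 6-day libraries and 54.2, 53.2 and 54.0 CPM in the 4-day libraries (-0.84 ± 0.09). Both genes had tight and separate groups.

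Other held losses were in genes of the centromere, the spindle and mitotic exit. They took in the centromere histone CENPA (log2 fold change -0.84 ± 0.14) and its chaperone HJURP (-0.85 ± 0.08), the spindle proteins HMMR (-0.79 ± 0.09) and TPX2 (-0.54), the kinase AURKA (-0.64 ± 0.08), the ubiquitin-conjugating enzyme UBE2C (-0.72 ± 0.12) and the proliferation marker MKI67 (-0.57 ± 0.08). HJURP was not on the list and was named as 1 of the 12 largest held losses at 10 CPM or more. TOP2A, the isoform of topoisomerase II used in dividing cells and a target of doxorubicin, had 472, 497 and 462 CPM in the 6-day libraries and 685, 688 and 627 CPM in the 4-day libraries (-0.48 ± 0.07, held). The groups did not overlap. TOP2B, the other isoform, was not called (-0.21 ± 0.08, adjusted p = 0.123 by edgeR's quasi-likelihood test). The 11 members not called included ASPM (-0.46), TTK (-0.04), PBK (0.03) and SPC25 (0.05).

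The promoters of 3 of these genes are shown for their cell cycle elements, with the CCAAT boxes and the cell cycle genes homology region (CHR), through which DREAM acts, in capitals. They are from RefSeq on GRCh38.p14 and cover the same window as above.
PLK1, chr16:23678639-23678938, plus strand: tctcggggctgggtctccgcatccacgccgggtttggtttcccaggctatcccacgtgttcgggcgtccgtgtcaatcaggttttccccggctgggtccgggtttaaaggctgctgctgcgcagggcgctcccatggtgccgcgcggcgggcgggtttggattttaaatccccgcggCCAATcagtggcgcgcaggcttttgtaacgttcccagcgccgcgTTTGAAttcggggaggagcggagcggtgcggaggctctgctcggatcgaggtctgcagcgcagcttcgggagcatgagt
CENPA, chr2:26785806-26786105, plus strand: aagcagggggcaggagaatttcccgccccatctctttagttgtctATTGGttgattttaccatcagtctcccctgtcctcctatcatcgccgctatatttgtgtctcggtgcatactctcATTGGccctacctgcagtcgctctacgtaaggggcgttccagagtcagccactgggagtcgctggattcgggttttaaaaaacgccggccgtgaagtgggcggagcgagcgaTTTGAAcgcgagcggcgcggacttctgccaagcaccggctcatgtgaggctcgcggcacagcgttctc
CCNB1, chr5:69166900-69167199, plus strand: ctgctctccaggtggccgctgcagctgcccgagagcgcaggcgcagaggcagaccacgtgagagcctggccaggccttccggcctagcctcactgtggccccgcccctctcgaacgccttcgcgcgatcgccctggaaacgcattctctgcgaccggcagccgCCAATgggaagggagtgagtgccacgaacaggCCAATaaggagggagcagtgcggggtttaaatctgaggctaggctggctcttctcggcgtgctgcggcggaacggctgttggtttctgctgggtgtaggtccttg
The CHR was searched as TTTGAA on both strands. These letters begin 29 bases before the start in PLK1 and 18 before it in CENPA, and are not in this window of CCNB1. Other forms of the element were not searched. The CCAAT box was searched on both strands too, and stands 87 and 55 bases before the start of CCNB1. Of the 30 held losses on the list, 25 had a RefSeq promoter, and 19 of these (76.0%) held the CHR letters, against 15.2% of all promoters and 10.2% of those of tested genes. The CCAAT box was in 84.0% of the 25, against 34.6% and 36.4%. Over all 41 matched members of the list the CHR letters were in 70.7%, so they mark the list and not the held losses in particular. They were in 1 of 40 matched promoters (2.5%) of the DNA replication list.

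**Figure D3:**
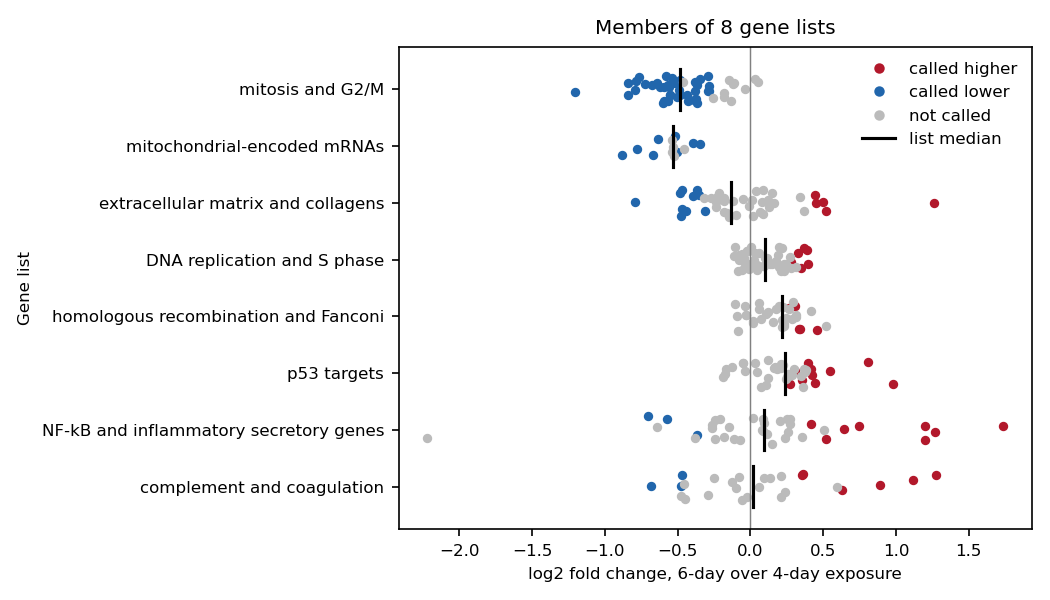
Each point is the log2 fold change of 1 tested gene, 6-day over 4-day exposure, in 8 gene lists, with genes called higher in red, called lower in blue and not called in grey, and a black bar at the list's median. The mitosis list lies almost entirely below 0 (median -0.48), and the DNA replication list (0.10) and p53 list (0.24) have no member called lower.

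Genes of DNA replication did not follow the mitotic genes. Of 49 tested members of the replication and S phase list, 6 were called higher (background 3.05%) and none lower (background 3.73%), with a median log2 fold change of 0.10. The held gains were GINS4, a subunit of the replicative helicase, with 94.0, 90.8 and 90.3 CPM in the 6-day libraries and 71.5, 67.6 and 70.9 CPM in the 4-day libraries (0.39 ± 0.08), and POLA1, the catalytic subunit of DNA polymerase alpha (0.40 ± 0.08). For GINS4 the groups were separate, and MCM2, MCM3, MCM6 and DTL were called without being held. Of 34 tested genes of homologous recombination and the Fanconi pathway, 5 were called higher and none lower (median 0.22), against the same background. BRIP1, a helicase that works with BRCA1, had 120, 127 and 119 CPM in the 6-day libraries and 82.2, 85.8 and 98.2 CPM in the 4-day libraries (0.46 ± 0.10, held). The 4-day library 3 came nearest to the 6-day libraries without reaching them, and the exonuclease EXO1 was the other held gain (0.34 ± 0.07). With library totals as the scale 15 replication and 12 recombination genes were called higher, and with a library left out the numbers were 3 to 5 and 2 to 5. The lowest replication count, 3, came without 6-day library 1 or 2, and the recombination count was 2 without 4-day library 1 or 6-day library 1 or 2 and 3 without either library 3. The 6-day means of POLA1, MCM2, MCM3, MCM6, EXO1, RBBP8 and RAD54L lay between their 4-day and control means, while those of GINS4, DTL, BRIP1 and MRE11 lay above both. The difference between the mitosis and replication lists was not itself tested.

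Targets of p53 were called in 1 direction only. Of 42 tested, 10 were called higher (background 3.05%) and none lower (background 3.73%), 35 lay above 0, and the median log2 fold change was 0.24. The count was 5 without 4-day library 1 or 6-day library 2, 6 without 4-day library 3 or 6-day library 1, and 19 with library totals as the scale. Summed over the list, the level was 6790 to 7090 CPM in the 6-day libraries and 5810 to 6410 CPM in the 4-day libraries. Both ranges lay below the 2-day libraries (10400 to 10700 CPM) and above the controls (2120 to 2240 CPM). The held gains were 3. CYFIP2, a regulator of the actin-nucleating WAVE complex, had 41.1, 45.6 and 44.1 CPM in the 6-day libraries and 23.6, 24.8 and 26.1 CPM in the 4-day libraries (0.81 ± 0.10). TP53I3, an oxidoreductase, had 77.7, 71.8 and 65.7 CPM in the 6-day libraries and 51.9, 47.6 and 47.7 CPM in the 4-day libraries (0.55 ± 0.09), and CMBL rose by 0.44 ± 0.09 on the log2 scale. All 3 had separate groups. CDKN1A, the main arrest effector, had 1491, 1655 and 1781 CPM in the 6-day libraries and 1404, 1527 and 1431 CPM in the 4-day libraries. These groups overlapped and the gene was not called (0.18 ± 0.10, adjusted p = 0.314 by edgeR's quasi-likelihood test). MDM2, the ubiquitin ligase that restrains p53, had 1381, 1314 and 1141 CPM in the 6-day libraries and 1051, 1093 and 953 CPM in the 4-day libraries. It was called (0.31 ± 0.09, adjusted p = 0.0403), but with a library left out the adjusted p reached 0.198. GDF15, a stress cytokine (0.38 ± 0.12, adjusted p = 0.0542), did not pass edgeR's test.

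Mitochondrial transcripts were lower at 6 days, with limited resistance to leaving out a library. All 13 protein-coding mitochondrial mRNAs had negative log2 fold changes and separate groups (27.6% of all tested genes had separate groups). They are part of the mitochondrial share given above, which was lower in every 6-day library. The 13 are therefore not independent observations. Of the 13, 8 were called lower (background 3.73%, median -0.53), and 1 was held (background 1.16%). MT-ND4L, a subunit of complex I and the held member, had 388, 418 and 396 CPM in the 6-day libraries and 620, 578 and 508 CPM in the 4-day libraries (-0.51 ± 0.10). MT-CO2, a subunit of cytochrome c oxidase, had 2031, 2875 and 3054 CPM in the 6-day libraries and 4626, 4414 and 4637 CPM in the 4-day libraries (-0.78 ± 0.18). For MT-CO2 the 6-day library 1 was the lowest, and without it the log2 fold change was -0.62. The number called was 1 without 4-day library 2, 2 without 4-day library 3 or 6-day library 1, 3 without 4-day library 1 or 6-day library 2, and 5 without 6-day library 3. In controls and 2-day libraries the sum of the 13 ranged from 42600 to 60300 and from 45100 to 64200 CPM, so single libraries of those groups already spanned most of the gap between 6-day libraries (40200 to 49200) and 4-day libraries (63300 to 65700). Nuclear genes of oxidative phosphorylation gave 2 losses and no gain among 66 tested (median -0.11).

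Other large losses were in genes of several kinds. MT2A, a metallothionein that binds zinc and copper (chromosome 16, 56608199 to 56609497, plus strand), had 131, 134 and 150 CPM in the 6-day libraries and 277, 274 and 307 CPM in the 4-day libraries. The groups were well apart (log2 fold change -1.05 ± 0.14, adjusted p = 0.000405 by edgeR's quasi-likelihood test), and the paralog MT1X was called lower too (-0.80 ± 0.20) without being held. TUBA1A, an alpha-tubulin, had 134, 129 and 133 CPM in the 6-day libraries and 234, 236 and 255 CPM in the 4-day libraries (-0.87 ± 0.08). Its groups were separate, and reads shared by near-identical alpha-tubulin copies could be dropped or assigned to another copy. ESM1, a secreted proteoglycan of endothelium, had 29.8, 26.3 and 23.6 CPM in the 6-day libraries and 43.4, 44.8 and 58.3 CPM in the 4-day libraries (-0.88 ± 0.14). KRT34, a hair keratin, had the largest held fall among genes at 10 CPM or more (-1.30 ± 0.24), but its 4-day libraries were uneven at 19, 10.8 and 22.7 CPM, against 5.54, 9.10 and 6.71 CPM in the 6-day libraries. The rest of the 12 largest held losses were the adhesion protein TENM2 (-0.96 ± 0.11), the receptor kinase ERBB3 (-0.87 ± 0.16), the adhesion receptor ADGRG6 (-0.85 ± 0.13) and HIF1A-AS3 (-0.96 ± 0.15), with HJURP, PLK1 and KIF20A above and IFIT2 below. HIF1A-AS3 is antisense to HIF1A, and the strand setting of the counting is not known, so its reads cannot be told apart from those of HIF1A.

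**Figure D4:**
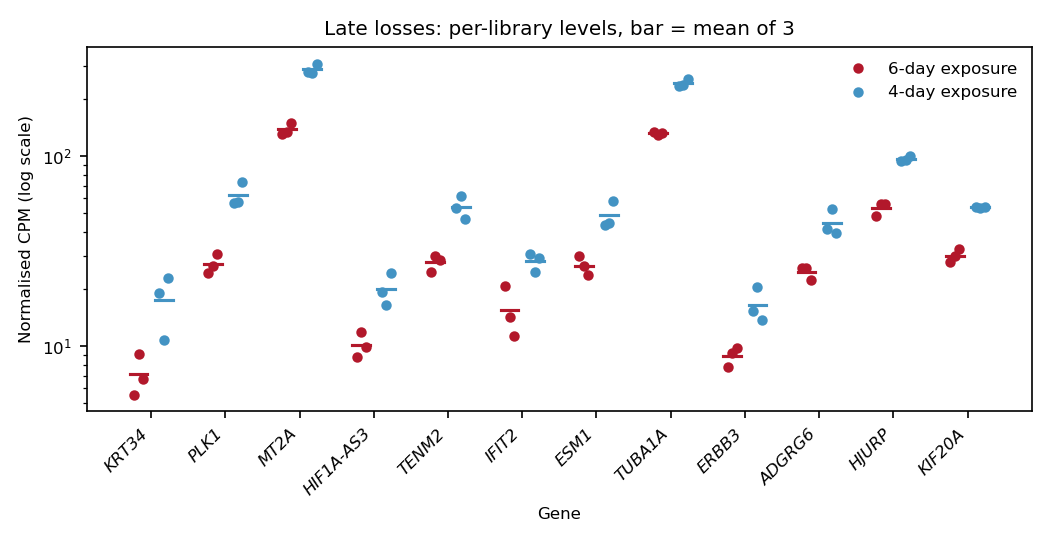
Each point is the level of 1 library in normalised CPM on a log axis, with 6-day libraries (red) left of 4-day libraries (blue) and a bar at the mean of 3, for the 12 largest held losses at 10 CPM or more in the higher group. The 6-day points lie below the 4-day points in all 12, which was a condition of their choice. Log2 fold changes run from -1.30 in KRT34 to -0.84 in KIF20A.

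Matrix genes were lower more often than higher. Of 44 tested members of the extracellular matrix and collagen list, 10 were called lower (background 3.73%) and 5 higher (background 3.05%), with a median of -0.13. Of these calls 6 losses and 4 gains were held (background 1.16% and 1.03%). CCN2, a matricellular growth factor that YAP and TGF-beta induce, had 175, 179 and 172 CPM in the 6-day libraries and 277, 349 and 285 CPM in the 4-day libraries (-0.79 ± 0.09). SPARC, a collagen-binding protein, had 1039, 1032 and 1010 CPM in the 6-day libraries and 1501, 1485 and 1330 CPM in the 4-day libraries (-0.49 ± 0.08). Both had separate groups, and POSTN (-0.47 ± 0.08), LOX (-0.47), COL4A1 (-0.44) and LAMC1 (-0.36) were the other held losses. LAMA4, DCN (0.50 ± 0.09), COL16A1 (0.52 ± 0.10) and COL7A1 (0.44 ± 0.09) were the held gains, so the laminin chains LAMA4 and LAMC1 moved apart. COL1A1 was called lower (-0.39 ± 0.08) but lost the call without 6-day library 2 (adjusted p = 0.0597 by edgeR's quasi-likelihood test). Among 31 tested genes of TGF-beta, activin and BMP signalling, 2 were called higher and 4 lower (19.4% in all, against 6.78% of all genes, median 0.09). The held losses were FSTL1 (-0.50 ± 0.08) and the ligand TGFB2 (-0.51 ± 0.11), and the held gain was LTBP1, which anchors latent TGF-beta (0.46 ± 0.08). The summed fibroblast markers given above were lower in all 6-day libraries, but VIM and COL1A1 supply most of that sum and COL1A1 is itself among the matrix losses. VIM itself was not called (log2 fold change -0.23). The other fibroblast markers were mixed. DCN was called higher, while FAP (0.12), PDGFRA (0.04) and COL3A1 (0.04) were not called. PDGFRB (-0.20), THY1 (-0.20) and LUM (-0.18) lay below 0 and were not called either. The part of fibroblast markers in the matrix losses was not tested.

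Among 27 tested senescence genes and CDK inhibitors, 3 were called higher (background 3.05%) and 5 lower (background 3.73%), with a median of -0.03, and 1 gain and 3 losses were held. Of the insulin-like growth factor binding proteins on the list, IGFBP2 (-0.15), IGFBP3 (-0.28) and IGFBP7 (0.09) were not called. Those called, IGFBP4, IGFBP5 and IGFBP6, split in direction. IGFBP4 had 458, 483 and 532 CPM in the 6-day libraries and 290, 270 and 264 CPM in the 4-day libraries (0.84 ± 0.09, held). IGFBP5 had 52.2, 55.7 and 57.9 CPM in the 6-day libraries and 83.4, 98.0 and 82.6 CPM in the 4-day libraries (-0.67 ± 0.14, held), and IGFBP6 was also lower (-0.57 ± 0.13, held). None of the 3 called had overlapping groups. HMGB1, a chromatin protein that leaves the nucleus of senescent cells, was lower (-0.38 ± 0.08, held), and LMNB1, a nuclear lamin that falls in senescence, was not called (-0.09 ± 0.08, adjusted p = 0.614 by edgeR's quasi-likelihood test). The apoptosis list of 39 tested genes had 3 gains and no loss (7.69% in all, against 6.78% of all genes, median -0.01), and BCL2, which blocks the mitochondrial pathway (1.09 ± 0.18), and APAF1, which executes it (0.61 ± 0.11), were both held gains.

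The interferon, ATF4 and cholesterol lists were called more often than genes at large (6.78%), with few held calls. Genes at large include many at low levels, which were rarely called, and genes of like level were not compared. Nuclear genes of oxidative phosphorylation (3.03%) and genes of ribosome biogenesis (3.23%) were called less often. Of 45 tested interferon-stimulated genes, 4 were called higher and 3 lower (15.6% in all, median -0.14), and the held ones were losses of IFIT1 (-0.79 ± 0.14) and IFIT2 (-0.88 ± 0.18), which bind foreign RNA. IFIT2 had 20.8, 14.2 and 11.3 CPM in the 6-day libraries and 30.7, 24.7 and 29.3 CPM in the 4-day libraries, after a mean of 273 CPM at 2 days. The groups were separate, and none of the 4 interferon gains was called without 6-day library 2 or 4-day library 3. Of 44 tested genes of the ATF4 response, 6 were higher and 2 lower (18.2% in all, median 0.09). The amino acid transporter SLC7A5 had 78.1, 68.7 and 78.8 CPM in the 6-day libraries and 111, 113 and 135 CPM in the 4-day libraries (-0.67 ± 0.08, held), while ALDH1L2 (0.45 ± 0.09) and AARS1 (0.36 ± 0.08) were held gains. Without 4-day library 3 or 6-day library 2 the ATF4 gains numbered 2. Cholesterol synthesis genes gave 4 losses and no gain among 26 (15.4%, median -0.10), and 1 loss was left without 6-day library 2 and 2 without 6-day library 1. No member of the cytosolic ribosomal protein list (77 tested), the Notch list (12) or the sarcomere list (6) was called by edgeR's quasi-likelihood test.

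Genes of heart stress and drug handling were also called more often than the 6.78% of all tested genes, again without matching for level. Of 25 tested heart stress and hypertrophy genes, FHL2 was called higher and RCAN1, NPPB and EDN1 lower (16% of the list, median -0.05), and none was held. NPPA (-1.49 ± 0.93, adjusted p = 0.38 by edgeR's quasi-likelihood test) and ANKRD1 (-0.67 ± 0.21, adjusted p = 0.0706) were not called, and NPPA was under 1 CPM in all 6 libraries. Of 26 tested topoisomerase and anthracycline-handling genes, 4 were higher (2 without 6-day library 3) and 1, TOP2A, was lower (19.2% in all, median -0.08). The held gains were AKR1B1, an aldo-keto reductase (0.48 ± 0.09), and ABCC3, an efflux transporter. ABCC3 had 7.68, 7.41 and 7.96 CPM in the 6-day libraries and 2.77, 2.52 and 4.94 CPM in the 4-day libraries (1.16 ± 0.19). The 4-day library 3 was the highest of its group, and without it the log2 fold change was 1.54. The actin gene ACTA2, HMOX1, SLC7A11, ATF3, ATF4, MYC and HES1, which were reported whether called or not, had log2 fold changes of -0.05 to 0.27 and none was called.

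Set in the order of exposure, the late changes mostly extended beyond the earlier levels. Of the 528 genes called higher, 352 (66.7%) had their highest mean of the 4 groups at 6 days, 125 had it at 2 days and 51 in controls. Of the 646 called lower, 518 (80.2%) had their lowest mean at 6 days, and 287 had their highest in controls. The choice of genes called higher or lower at 6 days itself favours these counts. C3 averaged 2.93, 112, 220 and 533 CPM from controls through 2, 4 and 6 days, and LAMA4 averaged 27.8, 50.2, 85.3 and 204 CPM, so both were higher at each longer exposure. SERPINE2 averaged 140, 383, 222 and 481 CPM, and IGFBP4 averaged 151, 500, 275 and 491 CPM, with a dip at 4 days. CCNB1 averaged 215, 90.1, 113 and 65.7 CPM and the whole mitosis list summed to 10100 to 10700, 5740 to 6110, 6880 to 7230 and 4980 to 5190 CPM, so the 4-day level stood above the 2-day level before the late loss. MT2A averaged 57.6, 88.6, 286 and 139 CPM, and its 6-day level remained above the control level.

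**Figure D5:**
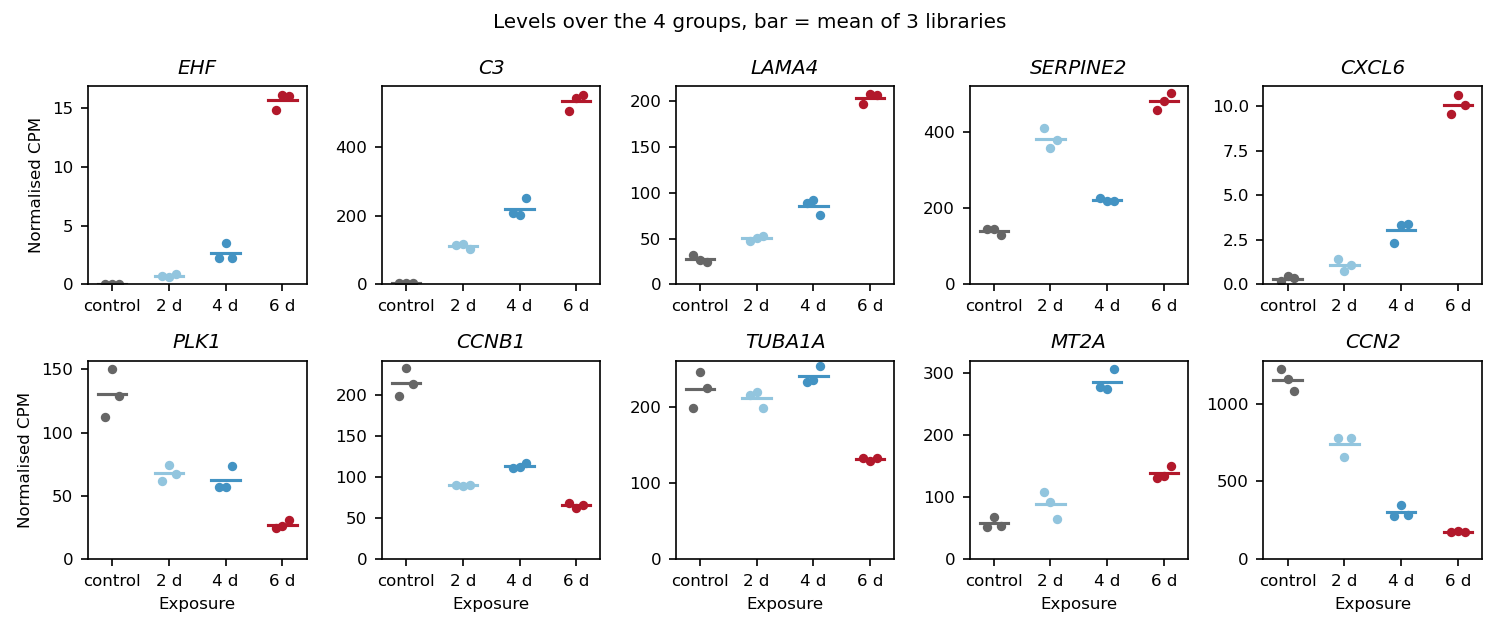
Points are the normalised CPM of single libraries in the control, 2-day, 4-day and 6-day groups, with a bar at the mean of 3, for 10 genes on linear axes from 0. The means of C3 run 2.93, 112, 220 and 533 CPM, CCNB1 has a 4-day mean (113 CPM) above its 2-day mean (90.1 CPM), and MT2A is highest at 4 days (286 CPM).

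The change from control to 2 days shares no library with the change from 4 to 6 days, so the 2 gene sets could be compared. Of the late gains, 277 (52.5%) were also called higher at 2 days against controls, as were 23.8% of all tested genes, and these made up 6.72% of the 4122 early gains. A further 109 late gains (20.6%) had been called lower at 2 days, against 23.4% of all genes. Of the late losses, 237 (36.7%) had also been lower at 2 days (5.84% of the 4058 early losses), and 175 (27.1%) had been higher.

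Some calls were lost when single libraries were left out. NPPB, which encodes the B-type natriuretic peptide of stressed heart muscle, had 0.426, 0.381 and 0.370 CPM in the 6-day libraries and 0.905, 0.600 and 2.36 CPM in the 4-day libraries. The 4-day library 3 was far above the others, and without it the log2 fold change of NPPB was -0.94 (adjusted p = 0.255 by edgeR's quasi-likelihood test) in place of -1.72 (adjusted p = 0.0209). KRT14 had 0.731, 0.490 and 0.0926 CPM in the 6-day libraries and 1.07, 0.660 and 2.31 CPM in the 4-day libraries, which overlapped, and its log2 fold change was -1.06 without 4-day library 3 in place of -1.70. VEGFA, the vascular growth factor, had 480, 456 and 508 CPM in the 6-day libraries and 336, 320 and 467 CPM in the 4-day libraries. The 4-day library 3 stood apart for VEGFA as well, but within the 6-day range, so it narrowed the gain and did not create it. PRR5L (13.7, 16.4 and 15 CPM in the 6-day libraries and 8.71, 8.28 and 13.9 CPM in the 4-day libraries) showed the same pattern. The VEGFA gain (0.36 ± 0.10) was called in 1 of 6 fits with a library left out, and the PRR5L gain (0.54 ± 0.15) in 2. FAM72D, HSPBP1 and CTH, all lower, were called in 1, 1 and 2 of the 6 fits, and the 6-day library that stood apart was library 2 for FAM72D and CTH and library 3 for HSPBP1. H1-2, a linker histone, and ONECUT2, a transcription factor, kept their calls in 4 and 5 of the 6 fits.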

How the data were processed

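The 12 AC16 libraries were made with NEBNext Ultra RNA reagents, as the labels' protocols state. The authors deposited raw counts per gene with no normalization, 1 column per library. HTSeq 0.13.5, STAR 2.7.8, Trimmomatic 0.38, fastp 0.23.2 and GRCh38.p13 are what the submitters' processing notes list, and the strand setting is not given in the sources used here.

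The test was that of edgeR 4.0.16 in R 4.3.3 (filterByExpr at count 10 and total 15, TMM, glmQLFit with robust settings over all 12 libraries, glmQLFTest, Benjamini-Hochberg adjustment over 17320 genes). The residual degrees of freedom were 8 and the common biological coefficient of variation 0.0887. CPM values use TMM-scaled library sizes. The SE is the absolute log2 fold change over the square root of F. Replicate libraries differed by more than sampling noise (chi-square per gene 4.37 to 9.15), so none was a copy. Positions and symbols came from GENCODE (GRCh38) and a symbol table, with 17284 symbols and 17099 positions matched.

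Named genes were the 12 largest held gains and losses at 10 CPM or more with separate groups and an ordinary symbol. To these were added up to 4 called members of each of 38 gene lists and a panel. Up to 6 called genes that lost their call with a library left out were added too. Part of these are printed, and some are not reported here. Others given as held or called members of a list, or among the single-library genes, were chosen after their values were seen. The genes described and the lists were chosen with earlier results of these data known. The procedure was tested on simulated data. The alternatives were other scalings and filters, DESeq2 1.42.0, a fit of the 2 groups alone, a replicate block and each library left out.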

Additional observations from a re-analysis of the deposited data

How the results depend on the processing

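The balance of gains and losses depended on the scaling. With library totals alone 1006 genes were higher and 350 lower, and all genes shifted upward by 0.07 on the log2 scale. A fit of the 6-day and 4-day libraries alone called 1837 genes, 947 of them higher, and held 342 gains and 368 losses. Asking for at least 1.5-fold in every fit left 88 gains and 57 losses. With each library left out in turn 574 to 884 genes were called, 260 to 417 higher and 308 to 467 lower. Under the other alternatives, which were DESeq2-type size factors, no filter, 1 CPM in 3 libraries, DESeq2, and, both chosen after seeing the data, mitochondrial genes left out and an exon-length trend removed, the number called was 1167 to 1389 and stayed within 1.5 times that reported. No single gene's call reversed, but the balance of calls did: losses outnumbered gains as reported, while gains outnumbered losses with library totals, in the fit of the 2 groups alone (947 higher, 890 lower) and without 6-day library 1 (311 higher, 308 lower). The causes were not tested.

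The replicate number as a block gave 962 genes, 443 higher and 519 lower. Deviations of same-numbered 6-day and 4-day libraries correlated at 0.0516, 0.0491 and 0.0552, too weakly to treat the numbers as pairs, although each library correlated best with its own number.

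Precision is limited at low levels: among 2611 genes under 1 CPM in the higher group, 12 were called and 0 held.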

Other observations

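The tubulins were noticed as a family after their values were seen. Of 20 tested tubulin genes 8 (40.0%) were called lower at 6 days and none higher, against 3.73% of all tested genes called lower, and 5 were held (1.16% of all genes), namely TUBA1A (log2 fold change -0.87), TUBA1C (-0.77), TUBB4B (-0.69), TUBA1B (-0.66) and TUBB6 (-0.54). Genes of RNA splicing showed a similar count, chosen in the same way. Of 22 heterogeneous nuclear ribonucleoprotein genes 7 (31.8%) were lower, with HNRNPR (-0.51), HNRNPH1 (-0.48) and HNRNPA2B1 (-0.37) held, and of 12 core snRNP protein genes 5 (41.7%) were lower, with SNRPD3 (-0.55) and SNRPD1 (-0.47) held. The same background of 3.73% applies to both, and no member of either family was called higher. Alpha-tubulin and ribonucleoprotein genes have near-identical copies, so single values are uncertain.

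Several genes at low levels were held gains or losses. H19, an imprinted long non-coding RNA, had 0.487, 0.490 and 1.16 CPM in the 6-day libraries and 3.56, 4.08 and 6.53 CPM in the 4-day libraries (log2 fold change -2.67), after 9.59 CPM at 2 days. CYP3A7, a fetal liver cytochrome, had 2.80, 1.58 and 1.16 CPM in the 6-day libraries and 0.339, 0.120 and 0.110 CPM in the 4-day libraries (3.21). The deiminases PADI3 (1.12) and PADI4 (0.91) and the phosphodiesterases PDE4C (1.31) and PDE4B (0.55) were held gains. Each pair made up 2 of 4 tested family members, while 1.03% of all tested genes were held gains. Both families were picked with their values known.

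The share of genes called moved with exon length. Among the 3321 protein-coding genes with the shortest exon sequence (207 to 3338 bases) 2.05% were higher and 6.08% lower at 6 days, and in the 3321 longest (7615 to 118976 bases) 5.66% were higher and 3.22% lower. The median log2 fold change was -0.07 in the shortest and 0.05 in the longest. With a trend on exon length removed, 39 mitosis genes were lower, 15 p53 targets were higher and 12 mitochondrial mRNAs were lower. Of 2562 long non-coding genes 46 (1.8%) were higher and 22 (0.859%) lower. Both shares were under those of all tested genes, at 3.05% and 3.73%.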
